A study of Mus musculus with 16 samples.

Results

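The RIG-I-like receptors are cytoplasmic RNA helicases, and their expression was followed here together with that of their adaptor and of an antiviral RNA-binding protein that is studied beside them. The set holds 5 genes, chosen by symbol from the 19752 genes with a probe set of their own: Ddx58 (RIG-I), Ifih1 (MDA5), Dhx58 (LGP2), Mavs and Zc3hav1 (ZAP, also PARP13). Each had 1 probe set of the 24922 on the array, so its transcripts, of which RefSeq lists 1 for Ddx58 and Dhx58, 3 for Ifih1, 4 for Mavs and 5 for Zc3hav1, were read as a sum. All 5 lay above the array median often enough to be tested in every comparison.

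RIG-I and MDA5 bind double-stranded RNA in the cytoplasm, RIG-I mainly short ends with a triphosphate and MDA5 long duplexes, and both then signal through the mitochondrial adaptor MAVS to induce type I interferon. LGP2 has the helicase but lacks the signalling domains and tunes the other receptors, and ZAP binds CpG-rich viral RNA and helps to degrade it. Type I interferon acts back on many of these sensors through the receptor chains IFNAR1 and IFNAR2 and the kinases TYK2 and JAK1, and this arm is the one that an interferon injection triggers directly.

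The series title asks how interferon-stimulated genes depend on IFNAR1 and on Tyk2, and RNA of male mice was measured on 16 arrays (Affymetrix Mouse Gene 1.0 ST), 2 for each of 8 groups. Mice of the line B6.129S2-Ifnar1tm1Agt/Mmjax, which lacks a working Ifnar1 (labelled KO below), were 6 weeks old and gave peritoneal macrophages (ICAM2+ F4/80+) 2 h after 10000 units of interferon alpha (IFNα) under the skin, or in a pair titled as not treated. B10.Q/J mice carry a natural mutation of Tyk2 and were 7 weeks old. They gave peritoneal macrophages of the same sort, and CD4+ T cells of the spleen sorted as TCRB+ CD4+ CD8-, each with vehicle and at 2 h and 5 h after the same dose. Of the 2 vehicle arrays per cell type, array 1 is from 2 h and array 2 from 5 h. No array comes from a mouse with both genes intact, KO and B10.Q mice differ in strain and age besides Ifnar1, and T cells were measured in B10.Q mice alone. For the KO pair titled as untreated, the sample notes name the same 2 h injection as for the treated pair. Titles were followed, and if those notes hold, both KO pairs were treated. Separate animals behind the replicates are not named in the labels, so p-values measure only the spread between these samples, which may be technical.

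Values are log2 of the deposited intensity, on which a difference of 1 is a doubling, and levels are compared within a gene only. Replicate arrays correlated at 0.9837 (the KO pair after IFNα) to 0.9971, and the median intensity of an array ran from 173.57 to 193.7. Array 1 of the treated KO pair stood apart, with the upper quartile of intensity 5.49 times the lower, against 6.06 to 7.52 on the other 15. The probe set of Ifnar1 read 9.93 to 10.31 on the 4 KO arrays and 10.09 to 10.56 on the 12 B10.Q arrays. What stretch of the transcript the allele changes is not given in the sources used here, so this level does not check the KO label. All 10 macrophage markers lay above the array median on each macrophage array, and all 6 CD4 T cell markers with a probe set on each T-cell array. The macrophage level (mean of the 10 markers) was 11.85 on that KO array and 12.1 to 12.39 on the other macrophage arrays. On T-cell arrays it was 8.42 on 2 h array 1, with 7 of 10 markers above the median, 7.40 on 2 h array 2, with 2 of 10, and 6.87 to 6.995 on the other 4. The titles of 5 of the 6 B10.Q macrophage arrays, all but 2 h array 1, carry a spleen code, while their source and sort fields name the peritoneal cavity. These labels disagree, and the source fields were followed. Gata6, a transcription factor of peritoneal macrophages, read 11.31 on 2 h array 1 and 11.44 to 11.85 on those 5. A T-cell vehicle title opens with a B-cell code, and B-cell markers read 6.66 to 6.88 over the T-cell arrays, with 1 of 7 above the median on each. In RNA of sorted cells in bulk, fewer cells of a type and less RNA per cell cannot be told apart.

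Promoter sequences are shown for the genes that differ most clearly in their response, to set a receptor that rose after IFNα beside the adaptor that gave no detectable change. RefSeq windows (GRCm38.p6) of 250 bases before to 50 after the start were available for 4 of the 5 genes, and Dhx58 had none. Capitals mark a match to the core word of the interferon-stimulated response element (GAAA, any 2 bases, GAAA) or to GAAANGAAA, a spacing that was added after the sequences had been seen. For Ddx58 the 250 bases before the start (chr4:40239826-40240075, minus strand) and the first 20 after it (chr4:40239806-40239825) are given, for Ifih1 a stretch of 26 bases after the start (chr2:62646206-62646231, minus strand), and for Mavs the 250 bases before the start (chr2:131233813-131234062, plus strand).
Ddx58 before the start: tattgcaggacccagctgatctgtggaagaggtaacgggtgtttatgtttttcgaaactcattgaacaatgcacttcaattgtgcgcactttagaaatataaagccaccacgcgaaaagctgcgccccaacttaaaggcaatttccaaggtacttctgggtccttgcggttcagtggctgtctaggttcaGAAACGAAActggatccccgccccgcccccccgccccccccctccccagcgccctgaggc
Ddx58 after the start: agTTTCGATTTCctatggcc
Ifih1 after the start: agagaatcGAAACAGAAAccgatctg
Mavs before the start: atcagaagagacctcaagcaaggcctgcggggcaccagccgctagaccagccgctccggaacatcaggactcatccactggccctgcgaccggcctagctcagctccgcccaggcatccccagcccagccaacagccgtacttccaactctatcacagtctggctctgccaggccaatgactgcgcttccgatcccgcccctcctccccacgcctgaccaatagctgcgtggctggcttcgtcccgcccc
The core word, searched on both strands like all others, matched at bases 3 to 12 after the start of Ddx58 (reverse orientation) and at bases 33 to 42 after the start of Ifih1, and it occurs in 3.44% of 32851 windows of the same length. GAAANGAAA matched once, at bases -60 to -52 of Ddx58, and occurs in 3.17% of windows. No match to either word was found in the windows of Mavs and Zc3hav1. An NF-kB word (GGG, any 2 bases, TTTCC, in 1.63% of windows) matched in none of the 4 windows. A match describes letters and not a bound site.

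In B10.Q macrophages all 3 helicases and Zc3hav1 rose 2 h after IFNα, while no change of Mavs was detectable. Ddx58, the sensor of triphosphate ends, read 9.46 and 9.46 with vehicle and 11.57 and 10.82 at 2 h. The groups did not overlap, and array 1 lay 0.75 above array 2 at 2 h. The rise was 1.73 ± 0.20 (log2, SE from limma, n = 2 against 2), 3.32-fold, at adjusted p = 0.00297. Ifih1, the sensor of long duplexes, read 9.15 and 9.14 with vehicle and 11.03 and 10.13 at 2 h, again without overlap and with array 1 the higher. It rose by 1.43 ± 0.23, 2.70-fold (limma adjusted p = 0.0161). Dhx58, the regulatory helicase, read 8.66 and 8.73 with vehicle and 10.61 and 9.81 at 2 h. Those arrays were also apart, and the rise was 1.51 ± 0.26, 2.86-fold (limma adjusted p = 0.0236). Monocyte markers (3 genes with a probe set) read 8.13 on 2 h array 1, whose title names the peritoneal cavity, and 8.72 on 2 h array 2, whose title names the spleen. They read 8.002 and 8.68 with vehicle and 8.09 and 8.35 at 5 h, and their part in the gaps between arrays was not tested.

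Mavs, the adaptor that both signalling receptors need, read 9.999 and 10.05 with vehicle and 9.94 and 10.12 at 2 h. The 2 h arrays lay on either side of the vehicle arrays, and the difference of 0.01 ± 0.22 had a 95% interval from -0.48 to 0.49 (limma adjusted p = 0.998). Zc3hav1, the CpG-RNA binding protein, read 9.72 and 9.57 with vehicle and 10.71 and 10.33 at 2 h. It rose by 0.88 ± 0.17, 1.83-fold, with an adjusted p of 0.0467 by limma, close to the threshold of 0.05. Thus 4 of the 5 genes were called higher, against 84 of 10531 genes tested (0.798%). Ddx58 kept its call with each of the 4 arrays left out in turn, whereas Ifih1 lost it without vehicle array 1 or 2 (adjusted p = 0.124 and 0.152 by limma), and Dhx58 without either of these (0.192 and 0.174) or without 2 h array 1 (0.224). The call of Zc3hav1 was lost without vehicle array 1 or 2 or 2 h array 1 (adjusted p = 0.215, 0.495 and 0.648 by limma), and also after median subtraction (0.0723), a trend and robust variance (0.0530), testing of every probe set (0.0565) or the replicate number as a block (0.0839).

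**Figure D1:**
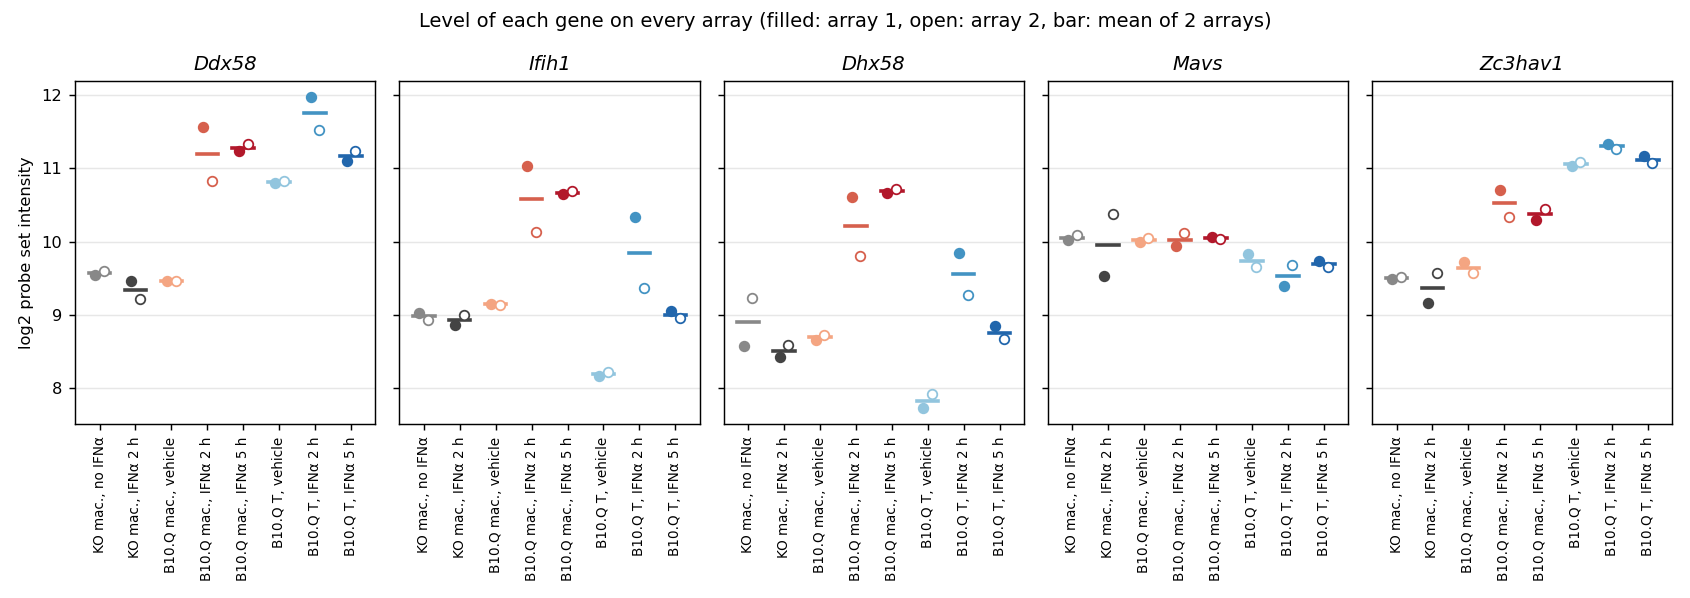
Level of each gene on every array, as log2 probe set intensity (vertical axis) in the 8 groups (horizontal axis). Filled points are array 1, open points array 2 and bars the mean of 2 arrays. Mavs stays within 0.521 log2 units over all group means, while Ddx58, Ifih1 and Dhx58 span 2.41, 2.48 and 2.87.

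At 5 h the same 3 helicases were called higher than with vehicle in B10.Q macrophages, with arrays much closer to each other. Ddx58 read 11.24 and 11.33, both above the vehicle arrays, a rise of 1.82 ± 0.20 or 3.53-fold (limma adjusted p = 0.00201). Ifih1 read 10.65 and 10.69, a rise of 1.52 ± 0.23 or 2.87-fold (limma adjusted p = 0.0112). Dhx58 reached 10.67 and 10.73, the highest level of this gene in the series, 2.00 ± 0.26 above vehicle (limma adjusted p = 0.00450). Mavs read 10.07 and 10.03, and its difference was 0.03 ± 0.22 with a 95% interval from -0.46 to 0.51.

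Zc3hav1 at 5 h read 10.30 and 10.45, above both vehicle arrays, but its difference of 0.72 ± 0.17 did not pass (limma adjusted p = 0.130). It passed when only the groups compared were fitted (0.00724) or all 16 arrays (0.0249). The count was 3 of 5 genes, against 88 of 10531 (0.836%). Leaving out 1 array ended the call of Ifih1 in each of 4 fits (limma adjusted p = 0.0967 to 0.126), and that of Dhx58 without vehicle array 1 (0.0582) or 5 h array 2 (0.0583).

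Between 2 h and 5 h none of the 5 genes was called in macrophages, against 1 of 10531 genes (0.0095%). None of the 5, and 5.02% of all genes, had an unadjusted p under 0.05. Dhx58 had the largest difference of the 5, 0.49 ± 0.26, with both 5 h arrays above both 2 h arrays (limma adjusted p = 0.904). Ddx58 differed by 0.09 ± 0.20, Ifih1 by 0.09 ± 0.23, Mavs by 0.02 ± 0.22 and Zc3hav1 by -0.15 ± 0.17. For Ddx58 and Ifih1 the 5 h arrays lay between the 2 h arrays. Set against the vehicle array of the same hour alone, with no test, the 5 h difference was 1.82 for Ddx58, 1.53 for Ifih1, 1.97 for Dhx58 and 0.80 for Zc3hav1.

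In macrophages labelled KO none of the 5 genes was called after IFNα. Ddx58 read 9.54 and 9.60 without IFNα and 9.47 and 9.21 with it. The treated arrays were both lower, and the difference was -0.23 ± 0.20 with a 95% interval from -0.68 to 0.23 (limma adjusted p = 1.00). Ifih1 read 9.02 and 8.93 without IFNα and 8.86 and 9.002 with it, a difference of -0.05 ± 0.23 between overlapping arrays. Dhx58 read 8.57 and 9.23 without IFNα and 8.43 and 8.59 with it. One untreated array, array 2, stood 0.66 above the other, and the difference was -0.39 ± 0.26 with an interval from -0.96 to 0.18.

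Mavs in KO macrophages read 10.02 and 10.10 without IFNα and 9.53 and 10.37 with it, the widest gap between replicates of this gene, and differed by -0.11 ± 0.22. Zc3hav1 read 9.49 and 9.51 without IFNα and 9.17 and 9.58 with it, a difference of -0.13 ± 0.17. Over all genes the limma fit called 0 of 10531 (0%), and 460 (4.37%) had an unadjusted p under 0.05, none of the 5 among them. Without the treated array 2 the Mavs difference was -0.53. That value rests on treated array 1 alone, the array that stood apart in spread and macrophage level. B-cell markers had a mean level of 7.45 on KO array 1 after IFNα (4 of 7 with a probe set above the array median) and 7.225 on KO array 1 without it (2 of 7). On the KO arrays numbered 2 they read 6.65 and 6.76, with 1 of 7 above the median on each. Neutrophil markers (8 genes) read 7.84 on untreated KO array 1, with 3 above the median, and 7.14 to 7.26 on the other KO arrays, with 2 above it. The part of either list in these values was not tested.

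The difference between the 2 h responses of B10.Q and KO macrophages was called for Ddx58 alone, 1 of 5 genes against 43 of 10531 (0.408%). It was 1.96 ± 0.29 for Ddx58, 3.89-fold (limma adjusted p = 0.0183). Dhx58 had nearly the same size, 1.91 ± 0.36, but missed the threshold (adjusted p = 0.0684 by limma). Ifih1 gave 1.48 ± 0.32 (adjusted p = 0.123 by limma) and Zc3hav1 1.01 ± 0.24 (0.172). Mavs gave 0.11 ± 0.31 with a 95% interval from -0.58 to 0.80. The call of Ddx58 ended without either untreated KO array (limma adjusted p = 0.0762 and 0.134) or either vehicle array (0.0959 and 0.0840). With all 16 arrays in 1 fit Dhx58 (limma adjusted p = 0.0237) and Zc3hav1 (0.0418) passed as well. Over all genes, the alternatives other than leaving out 1 array called 32 to 72. Leaving out 1 array leaves its group with a single array. Without treated KO array 2 that is array 1, which stood apart in spread and macrophage level. Without treated KO array 2 every gene but Mavs passed, 4 of 5, without treated KO array 1 Ddx58 and Dhx58, and without B10.Q 2 h array 2 all 3 helicases. These fits called 491 (4.68%), 94 (0.901%) and 90 genes (0.856%).

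Without IFNα the levels of the 5 genes in B10.Q and KO macrophages lay close together, and none was called, against 57 of 10531 genes (0.541%). At an unadjusted p under 0.05 there were also none, beside 11.5% of all genes. The B10.Q minus KO difference was -0.10 ± 0.20 for Ddx58, 0.17 ± 0.23 for Ifih1, -0.20 ± 0.26 for Dhx58, -0.03 ± 0.22 for Mavs and 0.14 ± 0.17 for Zc3hav1. The widest 95% interval was that of Dhx58, from -0.78 to 0.37, and differences within such intervals were not detectable with 2 arrays per group. None of the 5 was called either with all 4 KO arrays as 1 group, the setting that would hold if both KO pairs had been treated.

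**Figure D2:**
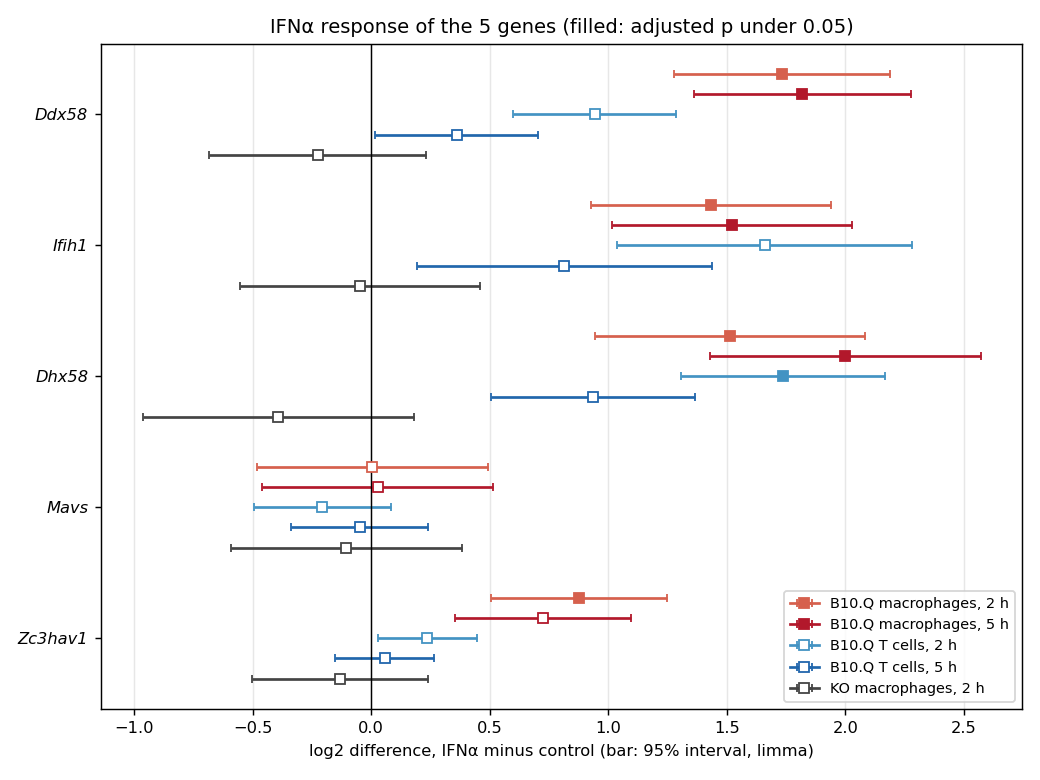
Difference after IFNα for the 5 genes in 5 comparisons (log2, IFNα minus control, horizontal axis), with bars for the limma 95% interval and filled squares for an adjusted p under 0.05. The 3 helicases lie to the right of 0 in both B10.Q cell types, Mavs intervals all include 0, and every KO interval includes 0.

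In B10.Q CD4+ T cells Dhx58 rose at 2 h, and Ddx58 and Ifih1 missed the threshold with arrays apart. Dhx58 read 7.73 and 7.92 with vehicle and 9.85 and 9.27 at 2 h. Both 2 h arrays lay above both vehicle arrays, and the rise was 1.74 ± 0.18 or 3.34-fold (limma adjusted p = 0.0171). The vehicle levels of Dhx58 lay at percentiles 54.8 and 57.6 of their arrays, so near the median that the size of this ratio is uncertain. Ifih1 read 8.16 and 8.22 with vehicle and 10.33 and 9.37 at 2 h, a gap of 0.967 between the 2 h arrays. Its difference was 1.66 ± 0.27, 3.16-fold (limma adjusted p = 0.0709). Ddx58 read 10.80 and 10.82 with vehicle and 11.98 and 11.53 at 2 h, a difference of 0.94 ± 0.15 or 1.92-fold (limma adjusted p = 0.0662).

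Mavs in T cells read 9.83 and 9.65 with vehicle and 9.39 and 9.68 at 2 h, overlapping groups with a difference of -0.21 ± 0.12 (limma adjusted p = 0.763). Zc3hav1 read 11.03 and 11.09 with vehicle and 11.34 and 11.26 at 2 h. These arrays did not overlap, yet the difference was only 0.24 ± 0.09, 1.18-fold (limma adjusted p = 0.763). The count was 1 of 5 genes, against 29 of 10112 genes tested (0.287%), and 4 of 5 had 2 h arrays above both vehicle arrays, as 14.5% of all genes did. The call of Dhx58 ended without vehicle array 1 (limma adjusted p = 0.383), without vehicle array 2 (0.220) or when only the groups compared were fitted (0.103). Ddx58 and Ifih1 passed beside it without 2 h array 1 (limma adjusted p = 0.00895 and 0.00034), and without 2 h array 2 Mavs also did (-0.35, limma adjusted p = 0.0481), 4 of the 5 in all. Those fits called 71 genes (0.707%) and 1817 genes (18.1%).

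The macrophage markers on 2 h array 1 of the T cells stand beside these values. Lyz2, a lysozyme gene of myeloid cells, read 12.2 on 2 h array 1 and 10.02 on 2 h array 2, against 7.34 to 7.67 on the other T-cell arrays and 13.73 to 13.91 on macrophage arrays. The median marker put the macrophage RNA at 2.27% of array 1 and 0.319% of array 2, with single markers from 1.24% to 30.9% on array 1. After this share was subtracted, a step added after the data had been seen, the 2 h differences were 0.95 for Ddx58, 1.65 for Ifih1 and 1.73 for Dhx58. Their limma adjusted p-values were then 0.0743, 0.0804 and 0.0186.

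At 5 h none of the 5 genes was called in T cells against vehicle, and 2 of 10112 genes were (0.0198%). Dhx58 read 8.85 and 8.67, a difference of 0.94 ± 0.18 (limma adjusted p = 0.556), Ifih1 9.05 and 8.96, a difference of 0.81 ± 0.27, and Ddx58 11.10 and 11.24, a difference of 0.36 ± 0.15. For these 3 genes both 5 h arrays still lay above both vehicle arrays, 3 of 5, as for 21.7% of all genes. The same 3 had an unadjusted p under 0.05, as did 3.83% of genes. Mavs read 9.74 and 9.65 and Zc3hav1 11.17 and 11.07, both overlapping vehicle, with differences of -0.05 ± 0.12 and 0.06 ± 0.09. Ifih1 (0.00128) and Dhx58 (0.00194) had limma adjusted p-values under 0.05 when only the 4 arrays compared were fitted. Over all genes, the alternatives other than leaving out 1 array called 1 to 63 here. From 2 h to 5 h the differences in T cells were -0.58 ± 0.15 for Ddx58, -0.85 ± 0.27 for Ifih1 and -0.80 ± 0.18 for Dhx58 (limma adjusted p = 0.386, 0.434 and 0.372), with every 5 h array below every 2 h array. Including Zc3hav1 (-0.18 ± 0.09) this order held for 4 of 5, as for 15.6% of all genes. None of the 5 passed, against 1 of 10112 genes (0.00989%), and 3 had an unadjusted p under 0.05, beside 9.85% of genes. Without 2 h array 2 all 3 helicases passed, in a fit that called 1641 genes (16.3%).

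**Figure D3:**
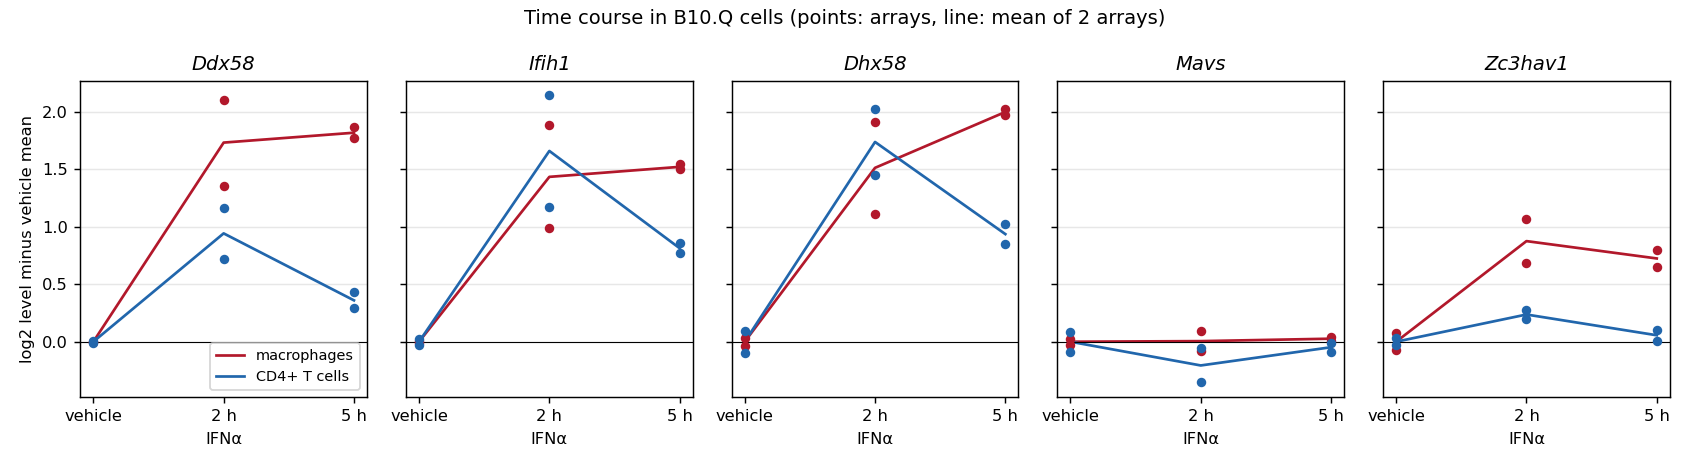
Level minus the mean of the vehicle arrays (log2, vertical axis) with vehicle, at 2 h and at 5 h (horizontal axis), in B10.Q macrophages (red) and CD4+ T cells (blue). Points are arrays and lines join the means of 2 arrays. The lines of Ddx58, Ifih1 and Dhx58 stay up between 2 h and 5 h in macrophages and go down in T cells, a contrast that did not pass adjustment.

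With vehicle all 5 genes differed between the B10.Q cell types, as did 6936 of 11161 genes (62.1%). Ddx58 and Zc3hav1 were higher in T cells, by 2.55-fold and 2.67-fold (-1.35 ± 0.20 and -1.42 ± 0.12, macrophages minus T cells, limma adjusted p = 7.42e-05 and 5.35e-07). Ifih1 and Dhx58 were higher in macrophages, by 1.94-fold and 1.83-fold (0.96 ± 0.28 and 0.88 ± 0.23, limma adjusted p = 0.0106 and 0.00463). Mavs was 1.22-fold higher in macrophages (0.28 ± 0.11, limma adjusted p = 0.0491). That call ended in 5 of the alternatives, among them median subtraction (0.130), the replicate number as a block (0.0578) and all 16 arrays (0.254). It also ended without macrophage vehicle array 1 or 2 or T-cell vehicle array 2 (0.106, 0.173 and 0.279), and that of Ifih1 without T-cell vehicle array 1 (0.0507).

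The responses of the 2 cell types were compared directly, and none of the 5 genes passed. At 2 h the macrophage minus T-cell difference of responses was 0.79 ± 0.28 for Ddx58 (limma adjusted p = 0.643), -0.23 ± 0.40 for Ifih1, -0.23 ± 0.32 for Dhx58, 0.21 ± 0.16 for Mavs and 0.64 ± 0.17 for Zc3hav1 (0.483), beside 3 of 11161 genes called (0.0269%). The unadjusted p of 2 of the 5, Ddx58 and Zc3hav1, was under 0.05, as for 7.3% of genes. Without macrophage 2 h array 2, Ddx58 (0.0378) and Zc3hav1 (0.0369) passed, in a fit that called 90 genes (0.808%). At 5 h it was 1.46 ± 0.28 for Ddx58 (limma adjusted p = 0.0752), 0.71 ± 0.40 for Ifih1, 1.06 ± 0.32 for Dhx58 (0.436), 0.07 ± 0.16 for Mavs and 0.67 ± 0.17 for Zc3hav1 (0.282), beside 28 genes called (0.251%). Here 3 of the 5, with Dhx58 as the third, had an unadjusted p under 0.05, as did 4.98% of genes. Ddx58 passed after median subtraction (0.0385), and every gene but Mavs passed when only the 8 arrays compared were fitted, at limma adjusted p from 4.40e-05 to 0.0243. Over all genes, the alternatives other than leaving out 1 array called 8 to 140 at 5 h.

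The change from 2 h to 5 h was also set against itself in the 2 cell types, a comparison chosen after the values had been seen. It was 0.67 ± 0.28 for Ddx58, 0.93 ± 0.40 for Ifih1 and 1.29 ± 0.32 for Dhx58 (limma adjusted p = 0.436, 0.441 and 0.229). Mavs gave -0.14 ± 0.16 and Zc3hav1 0.03 ± 0.17. None of the 5 passed, beside 2 of 11161 genes (0.0179%). The unadjusted p was under 0.05 for the 3 helicases and for 10.7% of genes. Without T-cell 2 h array 2, Ifih1 (1.42, limma adjusted p = 0.0250) and Dhx58 (1.58, 0.0105) did, in a fit that called 579 genes (5.2%).

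Ordered by group mean, the helicases separated into different patterns, with steps between neighbours and their 95% intervals taken from a fit of all 16 arrays. Ddx58 was highest in T cells at 2 h (11.76), ahead of the macrophages at 5 h by 0.47 with a 95% interval from 0.05 to 0.90. Macrophages at 5 h and 2 h and T cells at 5 h and with vehicle followed. Each step between neighbours in this run had an interval that includes 0. For the last pair this held in the 16-array fit, whereas the T-cell fit gave 0.36 with an interval from 0.015 to 0.71 before adjustment over genes. Groups further apart in the run were not compared in the 16-array fit. A step of 1.24 (0.82 to 1.67) then led down to the untreated KO, B10.Q vehicle and treated KO macrophages, whose neighbouring intervals include 0. Vehicle T cells thus stood above the B10.Q vehicle macrophages and both KO groups.

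Ifih1 and Dhx58 had their highest means in macrophages at 5 h (10.67 and 10.70), then macrophages at 2 h and T cells at 2 h, and their lowest in T cells with vehicle (8.19 and 7.82). The step from macrophages to T cells at 2 h was 0.73 for Ifih1 and 0.65 for Dhx58, with intervals above 0 but overlapping arrays. A step of 0.70 for Ifih1 and 0.66 for Dhx58 followed. Below it the 4 middle groups could not be ordered, since neighbouring intervals include 0, until a last step of 0.74 for Ifih1 and 0.69 for Dhx58 to vehicle T cells.

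Zc3hav1 was higher in all 3 T-cell groups than in any macrophage group, with a step of 0.54 (0.23 to 0.85) between them and a further step of 0.72 (0.41 to 1.04) between treated and vehicle B10.Q macrophages. For Mavs no neighbouring groups could be told apart, and groups further apart were not compared in this fit. The whole range was 0.521, from untreated KO macrophages at 10.06 to T cells at 2 h at 9.54.

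Over the 8 group means Ifih1 and Dhx58 correlated at 0.986 and Ddx58 with Zc3hav1 at 0.904, while Ddx58 correlated with Ifih1 at 0.5 and with Dhx58 at 0.508. Mavs ran from -0.793 with Zc3hav1 to 0.287 with Dhx58. These are descriptions over 8 points that share arrays, normalization and the difference between cell types. Among 3588 genes whose group means spanned at least 1 log2 unit, those most like Ddx58 were Slfn10-ps (0.998), a Schlafen pseudogene that may share probes with its relatives, Helz2 (0.993) and Oas1b (0.992). Those most like Ifih1 were Eif2ak2 (0.989), Dhx58 (0.986) and Ccnyl1 (0.978), and those most like Dhx58 were Ifih1, Eif2ak2 (0.975) and Oasl2 (0.974). Zc3hav1 ran most like Etnk1 (0.991), Fnbp4 (0.987) and Rnf114 (0.984), and Mavs most like Rhbdf2 (0.993), Mrps15 (0.991) and Wdr41 (0.988). The group means of Mavs itself spanned only 0.521, below the 1 unit asked of the genes searched. No neighbouring groups could be told apart for Mavs, so its likeness to these genes is uncertain.

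The partners of the receptors were read from listed genes. Of all genes, 0.798% were called in B10.Q macrophages at 2 h and 0.836% at 5 h. In T cells the share was 0.287% at 2 h and 0.0198% at 5 h. Of the activators and cofactors of RIG-I-like receptors, 14 of 15 were tested in macrophages, and 2 rose at 2 h while none fell. Ddx60, a helicase cofactor, rose by 1.61 ± 0.28 and Trim25, the ubiquitin ligase that activates RIG-I, by 1.11 ± 0.15 (limma adjusted p = 0.0284 and 0.00797). The mean vehicle level of Ddx60 was 7.35, below the medians of the vehicle arrays (7.497 and 7.513). The size of its ratios is thus uncertain, and its place among the tested genes may rest on the IFNα arrays. The median of the list was -0.09, beside -0.06 for all genes. At 5 h Ddx60 was the only one called (1.83 ± 0.28, limma adjusted p = 0.0130), and in T cells at 2 h 1 of 12 tested was, Trim25 (1.44 ± 0.13, limma adjusted p = 0.00853). Of 15 tested genes that restrain the receptors or Mavs, such as the ligases Rnf125 and Marchf5, none was called in any IFNα comparison. At most 0.836% of all genes were called there, so this count does not set the list apart from all genes.

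Below Mavs, 1 of 19 tested signalling genes rose in macrophages at both times and in T cells at 2 h, and none fell. It was Irf7, the interferon regulatory factor that amplifies interferon production, with 2.70 ± 0.28 and 2.83 ± 0.28 in macrophages at 2 h and 5 h and 1.87 ± 0.16 in T cells at 2 h (limma adjusted p = 0.00153, 0.00100 and 0.00631). The list's median in macrophages at 2 h was -0.07. No kinase or TRAF adaptor on this list was called after IFNα in either cell type. At most 0.836% of all genes were called there, so this does not set them apart from all genes.

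Around ZAP, 3 of 16 cofactors and relatives rose in macrophages at 2 h and none fell: Parp14 by 1.99 ± 0.22, Parp9 by 1.73 ± 0.20, both ADP-ribosyltransferase family members like ZAP, and Trim25, which ZAP also needs. The list's median was 0.31. At 5 h Parp14 (1.78 ± 0.22), Parp9 (1.64 ± 0.20) and Parp12 (1.56 ± 0.22) were called, each with a larger difference than Zc3hav1 itself, a gap between genes that was not tested. In T cells at 2 h Trim25 and Parp9 (1.43 ± 0.18, limma adjusted p = 0.0356) were called.

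Of the other RNA sensors listed, 8 of 14 tested in macrophages were called higher and none lower at 2 h, with a list median of 1.73. At 5 h 8 of 14 were, with a median of 1.83. The shares called over all genes were 0.798% and 0.836%. Ifit1, which binds RNA ends that lack self caps, gave 4.86 ± 0.42 at 2 h from a vehicle level of 6.12, so low on the array that the size of this ratio is uncertain. Oasl2 (3.21 ± 0.33), Oas2 (2.90 ± 0.28) and Oas1b (2.16 ± 0.21), members of the oligoadenylate synthetase family, had the next largest differences (limma adjusted p = 0.00153, 0.00101 and 0.00112). Their mean vehicle levels of 7.67, 7.62 and 7.64 lay near the array medians, so the size of these ratios is uncertain too. Oas genes are close paralogs whose probes may share signal. In T cells at 2 h 2 of 13 were called, Ifit1 (5.24 ± 0.28) and Oas1b (1.67 ± 0.15), with a list median of 1.35, beside 0.287% of all genes called. The T-cell vehicle level of Ifit1 was 6.77, below the medians of those arrays (7.445 and 7.475), so its ratio there is uncertain as well.

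**Figure D4:**
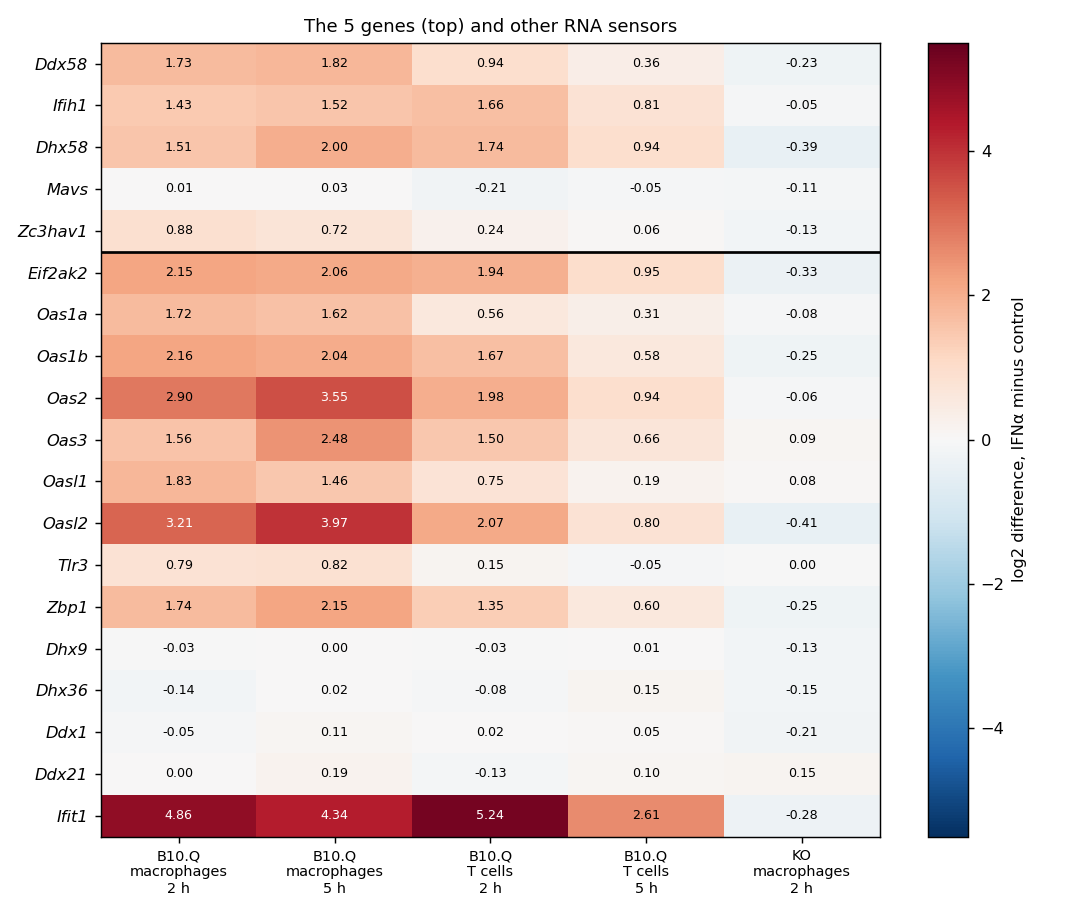
Difference after IFNα (log2, IFNα minus control, colour and printed value) for the 5 genes above the line and the 14 other sensors with a probe set below it, in 5 comparisons (columns). Rows for Mavs and for the helicases Dhx9, Dhx36, Ddx1 and Ddx21 stay pale in every column, and the KO column stays pale in every row.

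Against KO macrophages the 2 h response was called larger for 6 of these 14 sensors. Between macrophages and T cells at 5 h it was called larger in macrophages for 3 of them, Oasl2 (3.18 ± 0.47, limma adjusted p = 0.0221), Oas1b (1.46 ± 0.25, 0.0389) and Oas1a (1.32 ± 0.22, 0.0356). Ddx58 had a difference of the same size as Oas1b in that comparison and missed the threshold. Of 11 genes that limit responses to self RNA, Trex1, an exonuclease for DNA, and Adar, the enzyme that edits double-stranded RNA away from MDA5 recognition, rose in macrophages at 2 h (1.40 ± 0.16 and 1.14 ± 0.17, limma adjusted p = 0.00222 and 0.0107) and at 5 h (1.23 ± 0.16 and 1.24 ± 0.17), and none fell. In T cells none of 10 tested was called at 2 h. In KO macrophages the limma fit called 0 of 10531 genes (0%) after IFNα. No member of the 6 lists was therefore called there, and this says nothing particular about the lists.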

How the data were processed

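Total RNA of sorted cells was amplified with the Ambion WT Expression Kit and hybridised to Affymetrix Mouse Gene 1.0 ST arrays. Per the submitters' processing notes, the authors used Affymetrix Power Tools and RMA. Versions, and whether the 16 arrays were normalised together, are not given in the sources used here. The deposited values are intensities on a linear scale, and log2 of them was taken with no further scaling. Arrays have no read depth, and their number limits precision.

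Probe sets were named by the platform annotation (21425 of 24922 with 1 symbol, 1399 with several, 2098 with none). The probe set with the highest mean stood for each gene, and a gene was tested where at least 2 arrays of the fit passed their own median. limma 3.58.1 in R 4.3.3 (lmFit, eBayes) was fitted on 10 macrophage, 6 T-cell or, between cell types, 12 B10.Q arrays (all 16 for the order of levels), with Benjamini-Hochberg adjustment over all genes within each of 13 two-sided comparisons. Calls needed an adjusted p under 0.05, and errors are standard errors. The fits were also run on simulated data with independent noise for each gene. That noise holds no effect shared across an array, so the simulation does not cover such effects.

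The text names the 5 genes, up to 4 genes of each list with the largest absolute difference or those called, and the 3 genes most like each member. The members and lists were chosen with earlier results of these data known. Replicate numbers were not taken to pair the arrays: the labels tie them to no animal or day, and same-numbered deviations correlated at -0.292 to 0.184, at 0.156 between macrophages and T cells at 2 h and -0.137 at 5 h. These correlations run over all genes tested. At 2 h the array 1 minus array 2 gap had the same sign in both cell types for each of the 5 genes. It was 0.75 in macrophages and 0.45 in T cells for Ddx58, 0.898 and 0.967 for Ifih1, and 0.802 and 0.579 for Dhx58. At 5 h the sign was shared for Ddx58 and Mavs only. Whether same numbers share an animal was not tested, and the fits between cell types took arrays as independent. Alternatives covered the filter, scaling, variance model, probe sets, replicate block, arrays fitted and each array left out.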

Additional observations from a re-analysis of the deposited data

Results flagged for a closer look

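The difference between the 2 h responses of B10.Q and KO macrophages was itself past the threshold for Ddx58, at 1.96 on the log2 scale (limma adjusted p = 0.0183, n = 2 arrays per group), with both treated B10.Q arrays above and both treated KO arrays below their controls. The call ended without either untreated KO array or either vehicle array. If the sample notes hold, both KO pairs were treated.

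Dhx58 drew attention because both 5 h arrays lay above both 2 h arrays in macrophages and below both in T cells. The difference between the cell types was 1.29 and did not pass adjustment (limma adjusted p = 0.229), and with array 2 of the T cells at 2 h left out it was 1.58 (0.0105), in a fit that called 579 genes (5.2%).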

How the results depend on the processing

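Beside the values as reported, 955 values of single genes were recomputed under alternatives, of which 859 kept their direction and side of the threshold, 34 lost it, 32 gained it and 30 changed sign. Most of the 955 values belong to differences not called as reported, which had no call to lose, so 859 does not measure how stable the calls are. The cause of the changes was not tested, beyond that leaving out an array leaves fewer arrays.

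Counts of the 5 genes called moved as follows. For the 2 h response of B10.Q against KO macrophages the count was 3 with all 16 arrays. For T cells at 2 h it was 2 after median subtraction, 0 with only the groups compared and 2 with all 16 arrays. For T cells at 5 h it was 2 with only the groups compared, and for the 5 h response of macrophages against T cells 1 after median subtraction and 4 with only the groups compared. Over all genes, alternatives other than leaving out 1 array called 32 to 72 for the B10.Q against KO response (43 as reported). They called 2 to 50 genes in T cells at 2 h (29) and 1 to 63 in T cells at 5 h (2). For the 5 h response of the cell types they called 8 to 140 genes (28). Leaving out 1 array gave 1 to 4 genes for macrophages at 2 h, 1 to 2 at 5 h, 0 to 1 for KO macrophages, 0 to 4 for B10.Q against KO responses, 0 to 4 for T cells at 2 h, 0 to 3 for T cells at 5 h against 2 h, 4 for vehicle macrophages against T cells, 0 to 2 for the 2 h responses of the cell types and 0 to 2 for the change from 2 h to 5 h. The count for vehicle macrophages against T cells stands beside a large share of all genes, 62.1% called as reported. The replicate block ended 2 calls, those given in the report for Zc3hav1 in macrophages at 2 h (0.0839) and Mavs with vehicle (0.0578). Leaving out 1 array gave a count over all genes of 0 to 1191 in KO macrophages (0 as reported), 8 to 491 in the B10.Q against KO response (43), 36 to 123 in macrophages at 2 h (84), 29 to 38 at 5 h (88), 1 to 5 between these times (1), 21 to 33 in untreated B10.Q against KO macrophages (57), 0 to 1817 in T cells at 2 h (29), 0 at 5 h (2) and 0 to 1641 between these times (1). For macrophages against T cells it was 1 to 511 for the 2 h response (3), 6 to 11 for the 5 h response (28) and 1 to 579 for the change (2). The number of neighbouring group pairs whose arrays did not overlap was 15, or 12 after quantile normalization and 17 after median subtraction.

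Signs changed only for differences that were not called as reported. After median subtraction, the value was -0.0083 for Mavs in B10.Q macrophages at 2 h, 0.022 for Mavs in untreated B10.Q against KO macrophages. After quantile normalization, the value was -0.010 for Mavs in B10.Q macrophages at 5 h, -0.047 for Mavs in B10.Q macrophages at 5 h against 2 h, -0.046 for Zc3hav1 in the change from 2 h to 5 h between cell types. With all 4 KO arrays as 1 group, the value was 0.020 for Mavs in untreated B10.Q against KO macrophages, 0.0089 for Ddx58 in untreated B10.Q against KO macrophages. With 1 array left out, values ran as follows. In B10.Q macrophages at 2 h they ran from -0.081 to 0.092 for Mavs. In B10.Q macrophages at 5 h against 2 h they ran from -0.065 to 0.11 for Mavs, -0.34 to 0.038 for Zc3hav1, -0.29 to 0.46 for Ddx58, -0.36 to 0.54 for Ifih1. In KO macrophages they ran from -0.12 to 0.023 for Ifih1, -0.53 to 0.32 for Mavs, -0.34 to 0.073 for Zc3hav1. In untreated B10.Q against KO macrophages they ran from -0.072 to 0.0060 for Mavs, -0.53 to 0.13 for Dhx58. In the B10.Q against KO response they ran from -0.31 to 0.53 for Mavs. In T cells at 5 h they ran from -0.14 to 0.040 for Mavs. In the 2 h response of macrophages against T cells they ran from -0.71 to 0.26 for Ifih1, -0.63 to 0.18 for Dhx58. In the 5 h response of macrophages against T cells they ran from -0.014 to 0.16 for Mavs. In the change from 2 h to 5 h between cell types they ran from -0.16 to 0.22 for Zc3hav1, -0.29 to 0.010 for Mavs.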
